A study of Mus musculus with 4 samples.

Results

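Homing and thymic egress genes were followed through thymocyte development in single-cell libraries of a WT and an Eif4g2 cKO mouse. The group holds 9 genes, picked by symbol for their roles in cell migration from the 21926 genes of the deposited tables, and all 9 were found. They are Klf2, S1pr1, Ccr7, Ccr9, Ccr4, Cxcr4, Itgb7, Itgb2 and Icam1, and their level in each class of thymocyte is the measurement described here.

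The study asked what the translation initiation factor eIF4G2 does in T cell development. Both mice were 5 weeks old, and both carried loxP-flanked Eif4g2 alleles (Eif4g2 flox/flox). The WT mouse had no Cre, and the Eif4g2 cKO mouse carried the CD4-Cre transgene, which acts from the stage at which Cd4 is switched on, so that earlier thymocytes and stromal cells keep the gene. Whole thymus, unsorted, gave 1 cDNA library per mouse, and both mice are labelled female and batch1. Because each genotype is a single mouse, no test was made, and every interval given here covers counting error only.

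KLF2 is a zinc finger transcription factor that maturing thymocytes switch on late, and S1pr1 and Itgb7 are among the genes it is known to act on. S1PR1 is the receptor through which mature cells follow sphingosine-1-phosphate out of the thymus. The chemokine receptors place cells inside the organ: CXCR4 and CCR9 are known from immature thymocytes of the cortex, while CCR4 and CCR7 draw positively selected cells into the medulla. The integrin chains β7 and β2 serve adhesion to epithelium and endothelium, and ICAM-1 is a ligand of the β2 integrin LFA-1.

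The WT library held 6012 cells after filtering with 18355050 UMIs (unique molecular identifiers, 1 per captured transcript) and the cKO library 4335 cells with 18056277. A typical cell carried 1734 UMIs in WT and 2140 in cKO (medians). Eif4g2 itself had 4089 UMIs in WT (223 CPM, counts per 1000000 UMIs) and 4941 (274 CPM) in cKO, and so was not lower in the library labelled cKO. A transcript that keeps its 3′ end is still counted after a deletion, and where the deleted exons lie relative to the sequenced tags is not given in the sources used here, so these counts do not check the labels. Transcripts encoded on the Y chromosome (Kdm5d, Uty and Eif2s3y) gave 2542 UMIs in the WT library and 1 in the cKO library, and Ddx3y, also on the Y chromosome, 1427 and 510. The WT values go against its female label, so genotype and sex of the mouse cannot be told apart. Whether a genotype label is also in error was not tested, and WT and cKO stand for the libraries so labelled throughout. Both libraries shared 1055 cell names, which are serial numbers given to each library and not barcodes.

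Clusters were named from marker genes that did not include any of the 9 genes, and the 9 genes were kept out of the clustering. The classes were double-negative (DN)-like cells (99 in WT and 131 in cKO), proliferating cells (989 and 1301), double-positive (DP)-like cells (3321 and 2118), early post-selection-like cells (660 and 427) and mature single-positive (SP)-like cells (741 and 300), called the 5 stages below. Of all cells, 12.3% were mature SP-like in WT (exact binomial 95% interval 11.5 to 13.2) and 6.92% in cKO (6.18 to 7.72). A single cluster held the mature SP-like cells of both libraries and another the early post-selection-like cells. DP-like cells differed in this respect, since cluster 0 held 2484 of the 3321 in WT and cluster 7 held 1879 of the 2118 in cKO. Proliferating cells differed likewise, with 760 of 989 in cluster 3 in WT and 449 and 668 of 1301 in clusters 4 and 5 in cKO.

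The first question was at which stage each gene is expressed, within each library. Klf2, S1pr1, Ccr7 and Itgb7 were low in every immature class and high in mature SP-like cells of both mice. Ccr9 and Cxcr4 were lower in mature SP-like than in DP-like cells, Ccr4 peaked in early post-selection-like cells, and Itgb2 was already high at that stage. Levels are UMIs of the gene in CPM of the class total, and a stage difference is described as beyond the limit when the log2 ratio of levels passes 1 in size with at least 50 UMIs over both classes.

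**Figure D1:**
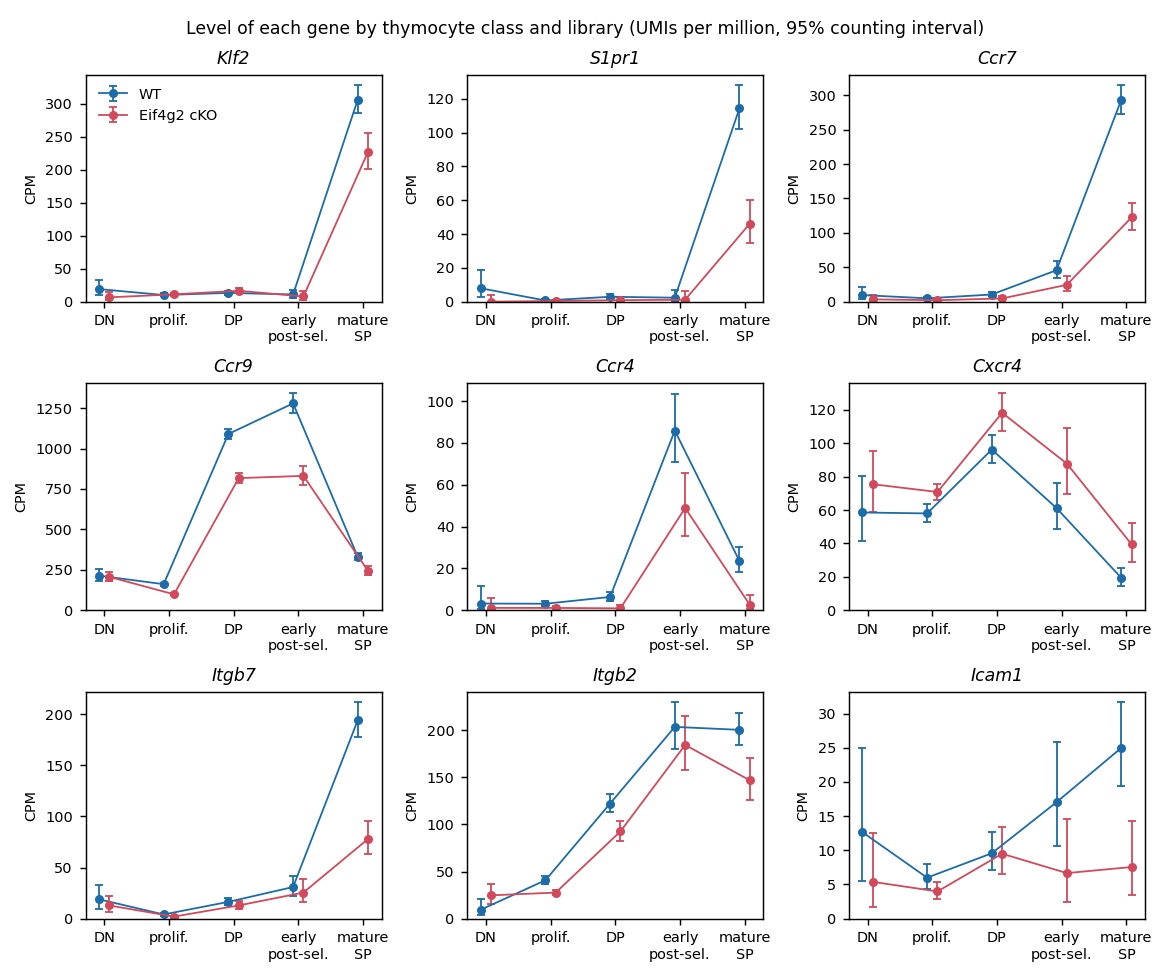
Level of each of the 9 genes in CPM (linear axis from 0) in 5 classes of thymocytes from DN-like to mature SP-like, with WT in blue and Eif4g2 cKO in red and bars for the exact Poisson 95% interval of the count. Klf2, S1pr1, Ccr7 and Itgb7 stand out in the mature class in both libraries, with S1pr1 at 114 CPM in WT and 46.2 in cKO, while Ccr9 peaks at 1280 CPM in WT and 831 in cKO in early post-selection-like cells.

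Klf2 (ENSMUSG00000055148.7, GRCm38 chromosome 8, 72319033 to 72321656, plus strand) lay at 306 CPM (286 to 328) in WT mature SP-like cells and at 227 (201 to 256) in those of cKO. The other 4 stages spanned 9.99 to 19.0 CPM in WT and 6.47 to 16.4 in cKO. The mature stage thus stood apart from the other 4 in both mice, and neighbours in order among the lower 4 of WT overlapped in their intervals. Mature over DP-like cells gave a log2 ratio of 4.54 (4.18 to 4.91) in WT and 3.79 (3.38 to 4.23) in cKO. The step fell late, for early post-selection-like cells still held only 10.8 and 7.78 CPM. In cKO their Klf2 ratio to DP-like cells, −1.08 (−2.45 to 0.06), came from 7 against 57 UMIs.

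S1pr1 (ENSMUSG00000045092.8, chromosome 3, 115710433 to 115715072, minus strand), the sphingosine-1-phosphate receptor of egress, was counted 307 times in WT mature SP-like cells and 55 times in cKO. This came to 114 CPM (102 to 128) and 46.2 CPM (34.8 to 60.1). In the other 4 stages it was close to absent, at 0.666 to 7.91 CPM in WT and at most 1.11 CPM in cKO. DN-like cells of cKO had 0 UMIs among 927640, which allows up to 3.23 CPM. Mature over DP-like cells gave log2 ratios of 5.32 (4.57 to 6.17) in WT and 5.74 (4.12 to 8.06) in cKO, the latter against 3 UMIs. Mature SP-like cells thus held 83.2% of all S1pr1 UMIs of the WT library and 79.7% of those of cKO, against 69.1% and 50.6% for Klf2.

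Ccr7 (ENSMUSG00000037944.8, chromosome 11, 99144196 to 99155077, minus strand), the receptor for medullary chemokines, climbed in steps. In WT it was at 10.3 CPM in DP-like, 45.7 in early post-selection-like and 293 (273 to 315) in mature SP-like cells. In cKO the same classes gave 4.60, 24.4 and 123 (103 to 144) CPM. Each of these steps was clear of the counting intervals in both libraries, and DN-like and proliferating cells had less than 10 CPM. From early post-selection-like to mature SP-like cells the log2 ratio was 2.68 (2.30 to 3.09) in WT and 2.33 (1.67 to 3.04) in cKO.

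Ccr9 (ENSMUSG00000029530.16, chromosome 9, 123678439 to 123784330, plus strand), the receptor for CCL25, had 14925 UMIs over both libraries. DP-like cells held 1090 CPM (1062 to 1119) in WT and 817 (787 to 848) in cKO. Early post-selection-like cells held 1280 and 831, and mature SP-like cells 329 and 242. DN-like cells held 213 and 206 and proliferating cells 161 and 97.8. The order of the classes was the same in both libraries, and the mature level was 1.73 log2 units below the DP-like level in WT (ratio −1.73, −1.83 to −1.62) and 1.76 below it in cKO (−1.76, −1.94 to −1.58). In cKO the levels of early post-selection-like and DP-like cells overlapped, as did those of mature SP-like and DN-like cells. The annotated Ccr9 span overlaps Lztfl1 and Slc6a20a on the other strand and Gm17200 on its own, so that reads could be assigned among these genes.

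Ccr4 (ENSMUSG00000047898.7, chromosome 9, 114490316 to 114504916, minus strand), a receptor of newly selected thymocytes, was the gene of the early post-selection class. It reached 85.9 CPM (70.7 to 103) there in WT and 48.9 (35.5 to 65.6) in cKO. DP-like cells held 6.31 and 0.863 CPM, the latter from 3 UMIs, and mature SP-like cells 23.5 and 2.52, again from 3 UMIs in cKO. Early post-selection-like over DP-like cells gave 3.77 (3.19 to 4.37) in WT and 5.82 (4.18 to 8.16) in cKO, where only 47 UMIs lay behind the ratio. DN-like and proliferating cells held at most 3.16 CPM in either library.

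Cxcr4 (ENSMUSG00000045382.6, chromosome 1, 128588199 to 128592293, minus strand), the CXCL12 receptor, peaked in DP-like cells. Its level there was 96.2 CPM (88.0 to 105) in WT and 118 (107 to 130) in cKO. It came down to 61.2 and 87.8 in early post-selection-like and to 19.4 (14.5 to 25.4) and 39.4 (29.0 to 52.5) in mature SP-like cells. Both libraries ordered the 5 classes alike, with mature SP-like cells lowest, and the mature over DP-like ratio was −2.31 (−2.75 to −1.90) in WT and −1.58 (−2.05 to −1.15) in cKO.

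Itgb7 (ENSMUSG00000001281.10, chromosome 15, 102215995 to 102231944, minus strand), whose protein pairs with integrin α4 or αE, followed Klf2 in its late step. Mature SP-like cells held 194 CPM (178 to 212) in WT and 78.0 (63.0 to 95.6) in cKO, and the other 4 stages 4.13 to 30.97 and 2.04 to 25.6. Mature over DP-like cells gave 3.56 (3.23 to 3.91) in WT and 2.59 (2.06 to 3.14) in cKO.

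Itgb2 (ENSMUSG00000000290.13, chromosome 10, 77530252 to 77565708, plus strand), the chain shared by LFA-1 and related integrins, showed no late step. It stood at 122 CPM in WT and 92.7 in cKO in DP-like cells, at 204 and 184 in early post-selection-like cells, and at 200 and 147 in mature SP-like cells. The mature over DP-like ratio stayed within the limit of 1 in both, at 0.71 (0.55 to 0.88) and 0.66 (0.39 to 0.93). Icam1 (ENSMUSG00000037405.8, chromosome 9, 21015985 to 21028817, plus strand, overlapping the antisense gene Gm47079) was low in all 5 stages, at 5.99 to 24.97 CPM in WT and 3.98 to 9.496 in cKO. In WT its highest stage was mature SP-like (24.97 CPM, 19.3 to 31.7) and in cKO DP-like (9.496 CPM, 6.54 to 13.3), from 67 and 33 UMIs.

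Counted together, 6 of the 9 genes were higher in mature SP-like than in DP-like cells of WT by more than 1 log2 unit (Klf2, S1pr1, Ccr7, Ccr4, Itgb7 and Icam1) and 2 lower (Ccr9 and Cxcr4). Among the 8871 genes measured well enough for this step, 7% were higher and 19.4% lower, shares that became 10.5% and 9.51% under size factors, where Itgb2 also passed the limit at 1.09. In cKO 4 were higher (Klf2, S1pr1, Ccr7 and Itgb7) and 2 lower (Ccr9 and Cxcr4), against 3.49% and 21.2% of 7616 genes, and Ccr4 and Icam1 had too few UMIs. Size factors gave 6.80% and 9.52% there, with Itgb2 at 1.06. Between early post-selection-like and DP-like cells 2 of the 9 were higher and 0 lower in WT (Ccr7 and Ccr4; all genes 3.3% higher and 7.81% lower). In cKO 0 were higher and 1 lower (Klf2; all genes 2.27% and 9.07%), with 4 genes short of 50 UMIs (S1pr1, Ccr7, Ccr4 and Icam1). Of these, Ccr4 stood at 5.82 (4.18 to 8.16) and Ccr7 at 2.41 (1.41 to 3.43), from 22 and 16 UMIs. The intervals of S1pr1, Icam1 and also Klf2 (−2.45 to 0.06) held 0. From early post-selection-like to mature SP-like cells, 4 were higher and 3 lower in WT (all genes 3.88% and 7.55%) and 4 higher and 2 lower in cKO (all genes 2.23% and 6.28%). The 4 were Klf2, S1pr1, Ccr7 and Itgb7 in both libraries, and of these Ccr7 had already been higher in early post-selection-like than in DP-like cells.

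The stretch upstream of the transcription start is shown for a pair of genes whose levels were highest in the mature class (Klf2 and Itgb7) and for a pair whose levels were lowest or reduced there (Ccr9 and Cxcr4). Sequences are from RefSeq on GRCm38.p6, whose promoter table held 6 of the 9 genes, all but S1pr1, Ccr7 and Itgb2. Each runs 5′ to 3′ in the direction of the gene from 250 to 31 bases before the RefSeq start. Capitals mark the letters CACCC or their reverse complement GGGTG, the core that Krüppel-like factors are known to bind.
Klf2 (chr8:72318812-72319031, plus strand): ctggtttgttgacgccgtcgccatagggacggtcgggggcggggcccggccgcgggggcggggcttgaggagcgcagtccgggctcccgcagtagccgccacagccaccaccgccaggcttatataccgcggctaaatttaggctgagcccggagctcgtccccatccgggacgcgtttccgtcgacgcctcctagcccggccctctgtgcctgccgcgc
Itgb7 (chr15:102231966-102232185, minus strand): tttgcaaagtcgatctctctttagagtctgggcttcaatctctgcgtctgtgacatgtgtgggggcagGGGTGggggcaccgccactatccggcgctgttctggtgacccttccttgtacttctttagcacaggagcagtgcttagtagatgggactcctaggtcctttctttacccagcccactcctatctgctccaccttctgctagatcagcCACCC
Ccr9 (chr9:123766961-123767180, plus strand): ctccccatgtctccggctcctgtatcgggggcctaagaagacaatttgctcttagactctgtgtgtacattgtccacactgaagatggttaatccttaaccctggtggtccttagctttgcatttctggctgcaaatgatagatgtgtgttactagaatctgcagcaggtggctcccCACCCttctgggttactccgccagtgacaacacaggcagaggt
Cxcr4 (chr1:128592330-128592549, minus strand): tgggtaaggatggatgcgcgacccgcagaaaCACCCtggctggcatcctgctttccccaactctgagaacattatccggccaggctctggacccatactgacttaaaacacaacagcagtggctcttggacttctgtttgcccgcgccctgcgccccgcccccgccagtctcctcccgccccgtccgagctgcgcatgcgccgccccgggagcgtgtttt
The Klf2 window held no CACCC on either strand, that of Itgb7 held 2, and those of Ccr9 and Cxcr4 held 1 each. Of the 32851 RefSeq promoters in the table, 47.8% hold at least 1 in the same window. The E-box letters CANNTG occurred in the Itgb7 window (1) and the Ccr9 window (2), and in 62.1% of all promoters, and the letters TGTTTAC of FOXO factors in none of the 4, against 2.81% of all promoters. A match is a description of letters and not a binding site. The Ccr9 window overlaps exons of longer Ccr9 transcripts in the GENCODE annotation, while the other 3 windows overlap no annotated gene.

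The central comparison was cKO against WT within each class. In mature SP-like cells S1pr1, Ccr7, Itgb7, Icam1 and Ccr4 were lower in cKO, Cxcr4 was higher, and Klf2, Ccr9 and Itgb2 differed by less than 0.5 log2 units. S1pr1, Ccr7 and Itgb7 lay 2.48-fold, 2.39-fold and 2.49-fold below WT. A genotype difference is described as beyond the limit when the log2 ratio passes 0.5 in size, the fold limit of the study, with at least 50 UMIs over both libraries.

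**Figure D2:**
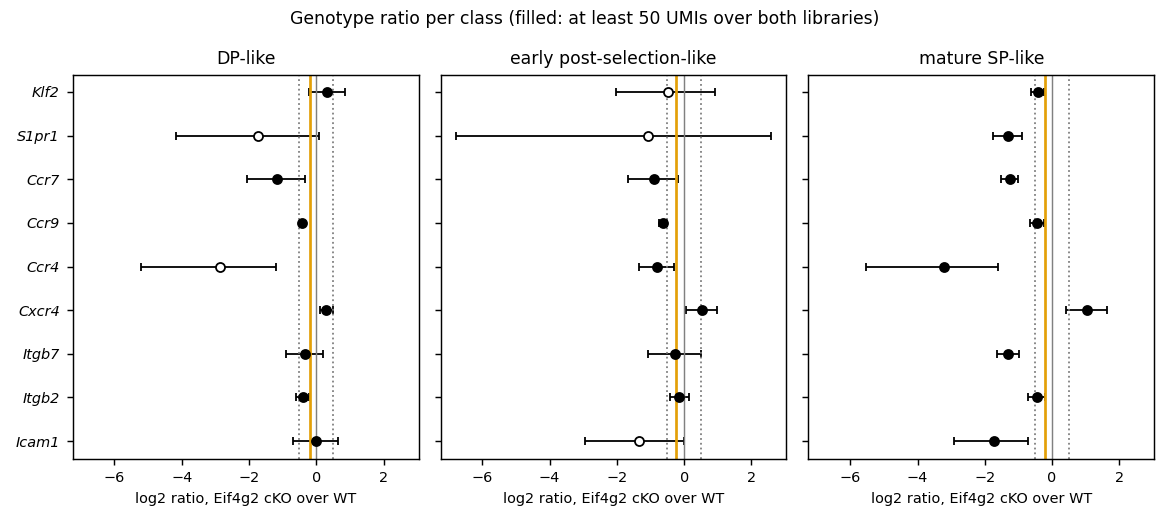
Log2 ratio of the level in Eif4g2 cKO over WT for the 9 genes in DP-like, early post-selection-like and mature SP-like cells, with bars for the exact 95% counting interval. Filled points have at least 50 UMIs over both libraries, dotted lines mark 0.5 on either side of 0, and the orange line is the median of all genes measured (−0.21 in mature SP-like cells). S1pr1, Ccr7, Ccr4, Itgb7 and Icam1 lie to the left of the lower limit in mature SP-like cells and Cxcr4 to the right of the upper one.

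For S1pr1 the log2 ratio in mature SP-like cells was −1.31 (−1.75 to −0.89), for Ccr7 −1.26 (−1.52 to −1.003) and for Itgb7 −1.31 (−1.65 to −0.99). Icam1 stood at −1.72 (−2.91 to −0.71), from 9 UMIs in cKO and 67 in WT, and Ccr4 at −3.22 (−5.54 to −1.61), from 3 and 63. Cxcr4 was the gene higher in cKO, at 1.03 (0.42 to 1.62). Klf2 stood at −0.43 (−0.63 to −0.23), Ccr9 at −0.45 (−0.64 to −0.25) and Itgb2 at −0.45 (−0.70 to −0.20). In all, 5 of the 9 were lower and 1 higher, while among the 7018 genes measured in this class 34.8% were lower and 10% higher, with a median of −0.21. Under scaling by size factors, which moved that median to −0.04, the shares were 27.1% lower and 17.5% higher, and the same 5 and 1 of the 9 genes remained beyond the limit.

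These ratios moved with where the clustering drew the edge of the mature class. At a clustering resolution of 0.6, which left 175 cKO and 730 WT cells in the class, S1pr1 came to −0.58 (−1.02 to −0.17), Ccr7 to −0.68 (−0.96 to −0.42), Itgb7 to −0.79 (−1.13 to −0.46) and Klf2 to 0.13 (−0.08 to 0.32). Over all 15 alternatives that gave a value, S1pr1, Ccr7 and Itgb7 were below −0.5 each time, at −1.85 to −0.58, −1.90 to −0.68 and −1.46 to −0.63. Klf2 ranged from −0.53 to 0.13 and passed the limit once. Icam1 was beyond the limit in 13 of 15, Cxcr4 in 10 of 15 and Ccr4 in 8 of 14.

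Lists of marker genes differed inside the mature class as well. The 9 mature SP markers summed to 2667 CPM in WT and 1622 in cKO (Dapl1 at 0 in cKO), the 11 proliferation markers to 942 and 1494, and the 5 regulatory T cell (Treg) markers to 537 and 237. The 4 globin genes summed to 205 and 10.9 CPM, with Hbb-bt at 0 in cKO, and the 11 markers of antigen-presenting cells to 82.0 and 18.5, with Clec9a, Siglech and Xcr1 at 0 in both and also C1qa and Cd209a in cKO. Il7r, which mature cells are known to regain, was at 124 CPM in WT and 40.3 in cKO, Cd69 at 89.1 and 119, and Rag1 at 73.4 and 94.8. The part of these differences in the ratios of the 9 genes was not tested beyond the subsets given below.

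In early post-selection-like cells 3 of the 9 genes were lower in cKO and 1 higher, against 34.8% and 8.49% of 5785 genes (23.1% and 19.4% under size factors). Ccr7 stood at −0.90 (−1.68 to −0.17), Ccr9 at −0.62 (−0.75 to −0.50), Ccr4 at −0.81 (−1.35 to −0.30) and Cxcr4 at 0.52 (0.05 to 0.99). Itgb7 and Itgb2 were within the limit, and Klf2, S1pr1 and Icam1 had fewer than 50 UMIs. The Ccr7 and Cxcr4 values changed side with the clustering: Ccr7 came to 0.01 at resolution 0.6 and to 0.13 with another random seed, and Cxcr4 to −0.01 with that seed.

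In DP-like cells, where CD4-Cre has acted, 1 of the 9 was lower and 0 higher, against 29.4% and 8.33% of 8845 genes (19.4% and 17.0% under size factors). This was Ccr7 at −1.17 (−2.07 to −0.34), from 16 UMIs in cKO and 54 in WT. Within the clusters the Ccr7 intervals of the libraries overlapped, at 12.5 CPM (9.17 to 16.6) in WT and 10.2 (1.24 to 37.0) in cKO in cluster 0, and at 5.51 (0.668 to 19.9) and 4.75 (2.60 to 7.97) in cluster 7. The cKO value in cluster 0 and the WT value in cluster 7 rest on 2 UMIs each. The third DP-like cluster had 5 Ccr7 UMIs in WT and 0 in cKO. The part of the cluster make-up in the pooled Ccr7 ratio was not tested. Ccr9 stood at −0.42 (−0.48 to −0.35), Itgb2 at −0.40 (−0.60 to −0.20), Itgb7 at −0.35 (−0.90 to 0.19), Cxcr4 at 0.30 (0.11 to 0.49), Klf2 at 0.31 (−0.22 to 0.84) and Icam1 at −0.01 (−0.69 to 0.65). Ccr4 had 3 UMIs in cKO and 33 in WT, and S1pr1 3 and 15. Because the libraries filled different DP-like clusters, Ccr9 was also read inside cluster 7, where it was 1166 CPM (1058 to 1283) in 280 WT cells and 808 (776 to 841) in 1879 cKO cells. In cluster 0 it was 1168 CPM (1134 to 1203) in 2484 WT cells and 958 (826 to 1105) in 117 cKO cells, while the third DP-like cluster gave 799 CPM (747 to 854) and 819 (725 to 922).

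In proliferating cells 5 of the 7 genes with at least 50 UMIs were lower and 0 higher, against 35.5% and 3.15% of 9364 genes. S1pr1 and Ccr4 had fewer UMIs. Ccr7 stood at −1.24 (−2.06 to −0.44), Itgb7 at −1.02 (−1.87 to −0.20), Ccr9 at −0.72 (−0.84 to −0.60), Icam1 at −0.59 (−1.22 to 0.04) and Itgb2 at −0.56 (−0.79 to −0.33). All of these pool 4 clusters that the mice filled differently. In cluster 3 Itgb2 was 38.9 CPM (34.2 to 44.1) in WT and 38.8 (24.3 to 58.7) in cKO, Ccr7 4.08 (2.67 to 5.98) and 5.29 (1.09 to 15.5), and Itgb7 3.92 (2.54 to 5.79) and 3.53 (0.427 to 12.7), so that the intervals of each gene overlapped there. In cluster 4 Ccr7 was 11.5 CPM (3.13 to 29.4) and 1.56 (0.672 to 3.07), from 4 and 8 UMIs. Ccr9 in cluster 3, the reverse of the pooled direction, was 127 CPM (118 to 136) in WT and 153 (123 to 189) in cKO, and in cluster 5 it was 157 (102 to 229) and 96.7 (88.3 to 106). In cluster 6 (148 WT and 107 cKO cells) Ccr9, Itgb2, Ccr7 and Itgb7 were lower in cKO and Icam1 higher, all with overlapping intervals. Ccr9 there was 569 CPM (511 to 631) in WT and 486 (431 to 546) in cKO, and Itgb2 66.0 (47.4 to 89.6) and 44.8 (29.3 to 65.6). Klf2 (0.15, −0.28 to 0.58) and Cxcr4 (0.29, 0.12 to 0.46) were within the limit. DN-like cells, which precede CD4-Cre, had enough UMIs for Ccr9 (−0.05, −0.38 to 0.28) and Cxcr4 (0.37, −0.23 to 0.98), both within it. In the pooled values Ccr7 was lower in cKO in each of the 4 stages with at least 50 UMIs, and the Cxcr4 ratio was above 0 in all 5. Inside single clusters this did not always hold. Cxcr4 was 121 CPM (88.1 to 163) in WT and 115 (103 to 128) in cKO in DP-like cluster 7. In cluster 5 it was 114 (68.9 to 179) and 92.3 (84.1 to 101). It was higher in cKO in clusters 0, 1, 3, 4 and 6, without overlap of intervals in clusters 1 and 3.

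The balance of the receptors for medulla and cortex was read as the share of Ccr7 among the UMIs of Ccr7 and Ccr9, which does not depend on the class total. Capture may differ between the genes, so the share is compared between classes and libraries only. It was 47.1% (44.7 to 49.5) in WT mature SP-like cells, from 787 and 884 UMIs, and 33.6% (29.2 to 38.3) in those of cKO, from 146 and 288. In all earlier classes it was between 0.56% and 4.26%, with overlapping intervals between libraries in each. The difference in the mature class moved with the clustering. At resolution 0.6 the cKO over WT log2 ratio was −0.68 for Ccr7 and −0.75 for Ccr9, so the share was not lower in cKO there. Over the 15 alternatives with a value, Ccr9 ranged from −0.75 to 0.14.

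**Figure D3:**
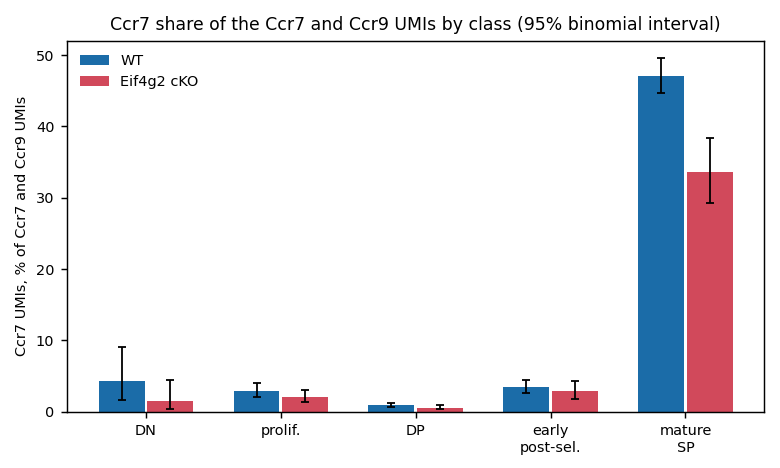
Ccr7 UMIs as a percentage of the Ccr7 and Ccr9 UMIs (axis from 0) in 5 classes, with WT in blue, Eif4g2 cKO in red and bars for the exact binomial 95% interval. The share stays below 5% until the mature SP-like class, where it is 47.1% in WT and 33.6% in cKO.

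Ratios among the late genes also differed between the mice. For each Klf2 UMI of the mature SP-like cells there were 0.373 S1pr1 UMIs in WT and 0.203 in cKO, 0.957 and 0.539 of Ccr7, and 0.634 and 0.343 of Itgb7. The log2 ratios of cKO over WT of these quotients were −0.88 (−1.37 to −0.41), −0.83 (−1.16 to −0.50) and −0.88 (−1.28 to −0.50). S1pr1, Ccr7 and Itgb7 were thus each lower relative to Klf2, and by similar amounts in the class as clustered here. With classes set from marker UMIs of each cell, the cKO over WT ratios were −1.85 for S1pr1, −1.90 for Ccr7 and −0.63 for Itgb7. The amounts were not alike in that setting, which held 135 WT and 40 cKO cells.

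With every cell thinned to 1000 UMIs, mature SP-like cells could be divided into those with and without a Klf2 UMI (154 and 587 in WT, 47 and 253 in cKO). S1pr1 was higher in the cells with Klf2, by 1.46 (0.74 to 2.16) in WT and 1.91 (0.28 to 3.46) in cKO on the log2 scale. Ccr9 was lower in them by −1.53 (−2.20 to −0.93) in WT, and in cKO the value was −0.80 (−2.06 to 0.25). Ccr7 gave 0.41 (−0.06 to 0.85) in WT and 1.59 (0.53 to 2.59) in cKO, and Itgb7 0.38 (−0.25 to 0.97) and 0.65 (−0.81 to 1.91). At this depth a cell without a Klf2 UMI may still express the gene.

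The share of mature SP-like cells with a UMI, at the same 1000 UMIs per cell, was 20.8% (17.9 to 23.9) for Klf2 in WT and 15.7% (11.7 to 20.3) in cKO. For S1pr1 it was 7.96% (6.12 to 10.2) and 4.67% (2.57 to 7.71), and for Ccr7 23.2% (20.2 to 26.4) and 33 of 300 cells (7.69% to 15.1%). Without thinning these shares were 42.1% and 31.3%, 21.6% and 11.7%, and 50.5% and 28.0%, at median depths of 3314 and 3328 UMIs. Of the 43 erythroid-like cells of WT, which should lack these receptors, 0 had a thinned UMI of any of the 3 genes, which allows a share of up to 6.98%, at a median depth of 6096. The exact binomial interval of these cells reaches higher, to 8.22%. The intervals of S1pr1 in WT and Ccr7 in cKO include 8.22%, and that of S1pr1 in cKO lies below it. Those of Klf2 in both libraries and of Ccr7 in WT lie above it. So 43 cells are too few to set the S1pr1 shares apart from background. A thinned S1pr1 UMI was found in 8 of 3321 DP-like and 0 of 660 early post-selection-like cells of WT. In cKO it was found in 2 of 2118 and 1 of 427. The intervals of these shares lie below those of mature SP-like cells in both libraries. A UMI of Klf2, S1pr1 or Ccr7 was found in 41.6% (37.99 to 45.2) of WT and 23.3% (18.7 to 28.5) of cKO mature SP-like cells.

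Mature SP-like cells were next divided by their coreceptor transcripts. Cells with only Cd8 UMIs numbered 285 in WT and 103 in cKO, those with only Cd4 UMIs 137 and 39, those with both 227 and 115, and those with neither 92 and 43. In the Cd8-only cells S1pr1 was 116 CPM in WT and 44.9 in cKO (log2 ratio −1.38, −2.20 to −0.64), Ccr7 262 and 92.4 (−1.51, −2.06 to −0.99) and Itgb7 220 and 68.7 (−1.68, −2.33 to −1.09). Klf2 there was 281 and 232 CPM (−0.27, −0.64 to 0.08). In the Cd4-only cells S1pr1 was 122 and 151 CPM (0.30, −0.60 to 1.13), Itgb7 174 and 160 (−0.12, −0.97 to 0.65), Ccr7 366 and 245 (−0.58, −1.24 to 0.02) and Klf2 288 and 414 (0.53, 0.00 to 1.03). Cells with both had S1pr1 at 98.4 CPM (79.5 to 120) in WT and 31.5 (18.7 to 49.8) in cKO and Ccr7 at 291 (258 to 327) and 131 (103 to 164). Cells with neither had S1pr1 at 153 (109 to 210) and 29.6 (8.06 to 75.8) and Ccr7 at 295 (231 to 370) and 74.0 (35.5 to 136). S1pr1 and Ccr7 were thus lower in cKO, with no overlap of intervals, in 3 of the 4 subsets. Inside the WT library Cd8-only and Cd4-only cells differed in S1pr1 by a log2 ratio of −0.07 (−0.54 to 0.42), and inside cKO the Cd8-only cells held less (−1.75, −2.82 to −0.67). The same contrast for Ccr7 was −0.48 (−0.76 to −0.19) in WT and −1.41 (−2.18 to −0.62) in cKO, and for Itgb7 0.34 (−0.04 to 0.72) and −1.22 (−2.16 to −0.25). The Cd4-only values of cKO rest on 16 S1pr1 and 17 Itgb7 UMIs, and whether the genotype difference itself differs between the subsets was not tested.

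Clustering the mature SP-like cells again gave 8 sub-clusters, chosen after the values were seen, and the mice filled different ones. Sub-clusters 0, 2 and 6 held 194, 158 and 180 of the 741 WT cells but 7, 1 and 14 of the 300 cKO cells. Sub-clusters 1 and 4 held 112 and 82 of the cKO cells but 11 and 60 of those of WT. Sub-cluster 2, led by Plac8, Itgae and Nkg7 with Runx3 among its leading genes, had S1pr1 at 147 CPM, Ccr7 at 317 and Itgb7 at 320 in WT. Sub-cluster 6, led by Igfbp4 and Ifit3, had the most Klf2 (531 CPM, 475 to 591) of the WT sub-clusters with at least 20 cells, together with S1pr1 at 227, Ccr7 at 417 and only 102 CPM of Ccr9. Sub-cluster 0, led by Chl1 with Itm2a and Cd40lg, combined Ccr7 at 278 CPM with S1pr1 at 4.85 and Ccr9 at 516, and it held 35 of the 63 Ccr4 UMIs of the class.

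**Figure D4:**
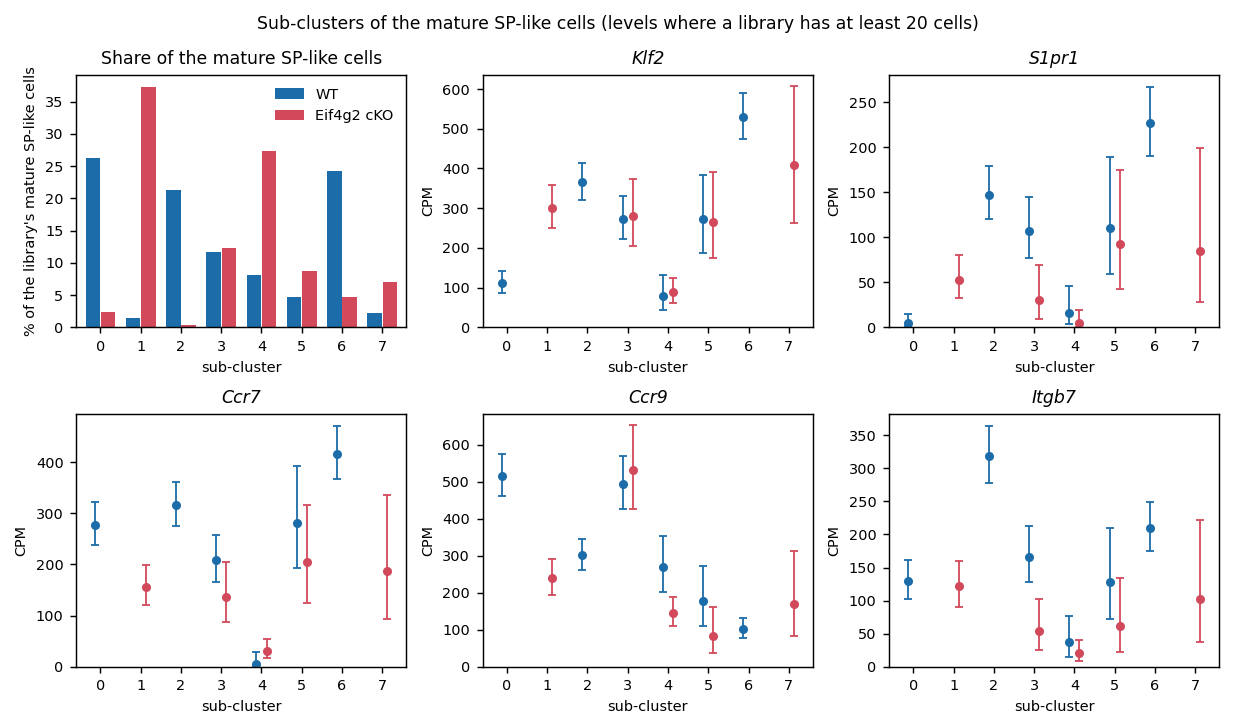
Sub-clusters 0 to 7 of the mature SP-like cells, with WT in blue and Eif4g2 cKO in red. The first panel gives each as a percentage of the library's mature SP-like cells, and the others give Klf2, S1pr1, Ccr7, Ccr9 and Itgb7 in CPM with exact Poisson 95% intervals where a library has at least 20 cells, such as sub-cluster 1 at 302 CPM of Klf2 and 52.7 of S1pr1 in cKO.

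The largest cKO sub-cluster, 1, was led by Pea15a and Il7r, with Il7r at 74.2 CPM (50.4 to 105) in cKO. This was the highest Il7r level among cKO sub-clusters with at least 20 cells. The highest of that size in WT was sub-cluster 0 at 199 CPM (165 to 237). In cKO sub-cluster 1 carried Klf2 at 302 CPM (251 to 359), S1pr1 at 52.7 (33.0 to 79.7), Ccr7 at 156 (120 to 198) and Itgb7 at 122 (90.9 to 161). Sub-cluster 4 had Pdcd1 and Nr4a2 as leading genes and more markers of the early post-selection list than of any other. It had little of the late genes in either library, with Klf2 at 79.1 CPM in WT and 88.1 in cKO, S1pr1 at 15.8 and 5.18 and Ccr7 at 5.28 and 31.1. It held 27.3% of the cKO mature SP-like cells and 8.10% of those of WT.

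Only 3 sub-clusters had at least 20 cells in both libraries. Sub-cluster 3 carried DP markers such as Rag1, Rag2 and Arpp21. There the cKO over WT ratio was −1.84 (−3.54 to −0.50) for S1pr1, from 5 UMIs in cKO and 41 in WT. Itgb7 gave −1.63 (−2.83 to −0.62) from 9 and 64, and Ccr7 −0.60 (−1.34 to 0.08) from 23 and 80. Klf2 gave 0.04 (−0.49 to 0.55) and Ccr9 0.10 (−0.28 to 0.47). In the Treg-like sub-cluster 5, with Foxp3 and Il2ra, S1pr1 was at 110 CPM in WT and 92.1 in cKO (−0.26, −1.67 to 1.08), Ccr7 at 280 and 205 (−0.45, −1.33 to 0.39) and Klf2 at 272 and 266 (−0.03, −0.84 to 0.76). In sub-cluster 4 Ccr4 had 14 UMIs in WT and 1 in cKO (−4.83, −10.24 to −2.12). Cxcr4 gave 1.20 (−0.31 to 2.70) in sub-cluster 3, −0.47 (−1.49 to 0.58) in sub-cluster 4 and 0.85 (−2.27 to 4.43) in sub-cluster 5. Each of these Cxcr4 intervals spans 0. Leaving out sub-clusters 3, 4 and 5, all named by another marker list, left 559 WT and 155 cKO cells, in which S1pr1 came to −0.80 (−1.32 to −0.31), Ccr7 to −1.004 (−1.34 to −0.69), Itgb7 to −0.75 (−1.14 to −0.39) and Klf2 to −0.15 (−0.40 to 0.10).

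Outside the main classes the late genes appeared in some other cells. A cycling cluster that shared markers of proliferating and mature SP cells and was left unnamed had 40 WT and 13 cKO cells. Its WT cells held Klf2 at 430 CPM, S1pr1 at 85.3, Ccr7 at 234 and Itgb7 at 247. NKT or γδ T-like cells (57 in WT and 14 in cKO) held Klf2 at 135 CPM (91.2 to 193) and 344 (220 to 511) and Itgb7 at 230 (171 to 302) and 315 (197 to 477). Summed over all cells of a library, S1pr1 was 20.1 CPM in WT and 3.82 in cKO, and Klf2 64.8 and 29.7, sums in which the number of mature cells and their level cannot be told apart.

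Other genes of migration were counted in mature SP-like cells from lists of related function. Of 15 genes of sphingosine-1-phosphate handling and egress, 10 had at least 50 UMIs, of which 5 were lower in cKO, 1 higher (Sgpl1, 0.71, −0.18 to 1.57) and 4 within the limit, with a median of −0.42. Over all genes of the class 34.8% were lower and 10% higher, with a median of −0.21. Gpr183, an oxysterol receptor, stood at −1.52 (−2.21 to −0.89), Klf6 at −1.24 (−2.15 to −0.44), S1pr4 at −0.97 (−1.52 to −0.45) and Plxnd1, a semaphorin receptor of the thymus, at −0.73 (−1.46 to −0.05). Foxo1, a factor known to act upstream of Klf2, was within the limit at −0.27 (−0.54 to −0.02). Gpr183 also had a late step like that of S1pr1, from 1.53 CPM in WT DP-like cells to 57.8 in WT mature SP-like cells.

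Of 19 integrin and adhesion genes 13 were measured well enough, and 10 were lower, 0 higher and 3 within the limit, with a median of −0.78, beside 34.8% lower and 10% higher over all genes (27.1% and 17.5% under size factors). Itgae, the αE chain that pairs with β7 and is known from CD8 cells, stood at −2.29 (−3.19 to −1.50), from 57.4 CPM in WT to 11.7 in cKO. Itgb3 stood at −2.30 (−3.13 to −1.56), Selplg, which encodes the P-selectin ligand, at −0.90 (−1.12 to −0.69) and Itga6 at −0.85 (−1.71 to −0.07). Itgae is among the leading genes of sub-cluster 2 (158 WT cells and 1 cKO cell) and Itgb3 among those of sub-cluster 0 (194 and 7). The part of the sub-cluster make-up in these ratios was not tested. Itga4, whose chain also pairs with β7, was at −0.68 (−1.12 to −0.25), and Itgal, the partner of β2 in LFA-1, at −0.57 (−0.89 to −0.25).

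Of 22 genes of migration signalling 21 were measured well enough, and 8 were lower, 1 higher and 12 within the limit, with a median of −0.40, a share of lower genes near the 34.8% over all genes. Dock2 and Dock8, guanine nucleotide exchange factors, stood at −1.43 (−1.70 to −1.17) and −1.14 (−1.46 to −0.82), Sipa1, a negative regulator of Rap1, at −0.83 (−1.24 to −0.43), and Rac1 at 1.05 (0.82 to 1.28). None of 10 further chemokine receptors reached 50 UMIs over both libraries, with Cxcr6 the most counted at 33 and 5. Of 10 chemokine ligands only Ccl25, the ligand of CCR9 made by thymic epithelium, had enough UMIs, with 48 in WT and 3 in cKO (−2.83, −5.16 to −1.20). WT DP-like cells held more of it (26.4 CPM) than WT mature SP-like cells (17.9). Whether the Ccl25 UMIs arose in the thymocytes themselves was not tested.

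The genotype ratio of all genes in mature SP-like cells went with gene length in the GENCODE annotation. Its median was 0.13 over 750 genes that span up to 5 kb and −0.92 over 850 genes that span more than 100 kb. Klf2, S1pr1 and Cxcr4 belong to the shortest bin, where 13.1% of genes were lower and 19.7% higher, and S1pr1 lay below −0.5 among them. Ccr7, Itgb7, Ccr4 and Icam1 span 10 to 25 kb, a bin with a median of −0.05 and 21.2% of genes lower. Itgb2, in the bin of 25 to 50 kb with a median of −0.31, lay near that median. Ccr9, at 106 kb over all its annotated transcripts, was above the median of its bin. Its RefSeq start lies inside that span, just beyond position 123767180, so its bin depends on the transcript taken. A span from that start falls in the bin of 10 to 25 kb, whose median of −0.05 lies above the −0.45 of Ccr9. The part of gene length in the ratios was not tested.

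The genes whose profile over the 10 combinations of class and library was most like that of each member were sought among 8891 genes with at least 200 UMIs. The points share libraries and class totals, so the correlation is a description. Closest to Klf2 were S1pr1 (Pearson r = 0.98 of log2(CPM + 10)), Slfn1 (0.98) and Ctss (0.97). S1pr1 was followed by Slfn1 (0.98), Irf7 (0.98) and Rflnb (0.98), Ccr7 by Phf11c (0.99), Tesc (0.98) and Gimap4 (0.98), and Itgb7 by Nfkb2 (0.98), B4galnt1 (0.98) and Phf11c (0.97). The pattern of Ccr9 was most like those of Tespa1 (0.98), Celf2 (0.98) and Setd4 (0.97), that of Ccr4 like Chl1 (0.96), Sh3bp2 (0.96) and Tacc2 (0.95), and that of Cxcr4 like H1f0 (0.97), Capza2 (0.96) and Tfg (0.95). Itgb2 was followed by Cept1 (0.99), Acot9 (0.98) and Rbm38 (0.98), and Icam1 by Scml4 (0.94) and Plaur (0.94). Among the 9 themselves, Klf2 correlated with Ccr7 and Itgb7 at 0.88 and 0.87 and with Cxcr4 at −0.82.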

How the data were processed

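Thymus of 1 WT and 1 Eif4g2 cKO mouse was dissociated and sequenced on the DNBelab C4 droplet platform, a 3′ UMI method. The deposited values are raw UMI counts per gene and cell, which the authors made with dnbc4tools (version 2.1.3 in the design text, 3.0 in the matrix header) on mm10. Accompanying oligo libraries carry no values of their own. Columns without a sample numbered 0.

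Cells with at least 50 genes and at most 10% mitochondrial UMIs were kept (2 of 6014 WT cells removed, 0 of 4335 cKO cells). Every barcode held at least 1000 UMIs. Doublets were not removed. With scanpy 1.11.5, counts scaled to 10000 per cell were log-transformed, and 2000 variable genes, without the 9 members and the migration lists, gave 30 principal components, a graph of 20 neighbours and Leiden clusters at resolution 1. Clusters were named from marker lists with at least 3 raised markers. UMIs were summed per class and library and scaled to CPM. Intervals are 95%, exact Poisson for levels, exact conditional binomial for ratios and exact Clopper-Pearson for shares. A level of 0 allows 3 counts. Calculations were tested on simulated data. No p-value was computed. Gene identifiers matched GENCODE M21 on GRCm38 for 21379 of 21926 (97.5%).

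Members and lists were chosen with earlier results of these data known. All 9 members are named, with the 3 genes most like each (1 of them is not reported here) and, of each list, up to 4 with the largest genotype ratio in mature SP-like cells. Foxo1, Itga4, Itgal, Cxcr6 and the leading genes of sub-clusters were chosen after their values were seen. Alternatives covered cell filters, clustering, scaling, depth and UMI minimums.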

Additional observations from a re-analysis of the deposited data

How the results depend on the processing

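No paired analysis was possible because each genotype had 1 library and no test was made. Over 16 alternatives, 5 of them chosen after seeing the data, 695 values of single genes were recomputed, of which 591 moved by less than their counting interval, 101 moved further and 3 that had been beyond the limit changed sign. The values at minimums of 20 and 1 UMI equal the main ones by design and count among the 591. In mature SP-like cells, 6 genes beyond the limit became 3 both with classes set from marker UMIs of each cell and with cells thinned to 1000 UMIs. In early post-selection-like cells, 4 became 2 at resolution 0.6, with each library clustered alone and with random seed 2, and 0 with classes from marker UMIs. There, Ccr7 turned to 0.00601 at resolution 0.6 and to 0.134 with seed 2, and Cxcr4 to −0.0116 with seed 2. In DP-like cells, 1 became 0 with classes from marker UMIs, 2 with size factors (Klf2 at 0.51 as well), 2 at a minimum of 20 UMIs and 3 at a minimum of 1. In the step from DP-like to mature SP-like cells of cKO, 6 became 2 with classes from marker UMIs, while all alternatives with a value kept the WT count of 8 within 1.5 times. Fewer cells or UMIs enter several of these settings (40 cKO mature SP-like cells from marker UMIs, 57 with at most 10000 UMIs and 3% mitochondrial UMIs per cell). For the other settings the cause was not tested. With each library clustered alone the WT mature SP-like cells carried no name, so that setting gave no value for them. Size factors moved the median genotype ratio of all genes from −0.21 to −0.04 in mature SP-like, from −0.23 to 0.01 in early post-selection-like and from −0.19 to 0.01 in DP-like cells.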
